A study of Mus musculus with 14 samples.

Results

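The average effect of Atg16l1 loss was measured in mouse small intestinal organoids as the mean expression of the genotypes that lost Atg16l1 minus that of the genotypes that kept it, each genotype counted once. It was described over all 14 samples of the series, 8 with deleted Atg16l1 and 6 without. It covered the 12804 genes, of 18781 in the table, whose mean log2 value reached 3.32, which is 10 on the linear scale. A gene counted as moving with Atg16l1 loss only if its difference had the same direction in both genetic backgrounds, which held for 4469 genes (34.9%). The backgrounds were WT, where 4 Atg16l1ΔIEC samples were compared with 4 WT samples, and Rnaseh2b-deficient, where 4 Atg16l1/Rnaseh2bΔIEC samples were compared with 2 Rnaseh2bΔIEC samples. By the labels, WT organoids carried floxed Atg16l1 and floxed Rnaseh2b without Cre recombinase, and the other genotypes carried heterozygous Villin-Cre with floxed Atg16l1, floxed Rnaseh2b or both. The Villin promoter drives Cre in the intestinal epithelium, so each deletion was epithelial and already present in the animal from which the stem cells came. The organoids, which are epithelial cultures grown from intestinal stem cells, were kept in Intesticult medium without treatment. The age of the mice that gave these cultures is not given in the sources used here. Within the WT background, Atg16l1 status coincided with Cre and with sequencing lane. By the labels, the floxed Rnaseh2b allele was named there only for the WT organoids. These differences cannot be told apart from Atg16l1 status there. Within the Rnaseh2b-deficient background all libraries carried Cre, and the floxed Atg16l1 allele was named only for the double knockout.

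ATG16L1 is the scaffold that brings the ATG12-ATG5 conjugate to membranes and thereby sets where LC3 becomes coupled to lipid during autophagy. RNase H2, of which Rnaseh2b encodes a subunit, removes ribonucleotides from genomic DNA. In the intestinal epithelium ATG16L1 is best known from Crohn's disease genetics and from the secretory Paneth cells of the crypt base. Cells that cannot complete autophagy keep the receptor p62, which binds KEAP1 and can release the transcription factor NRF2, the inducer of glutathione and antioxidant genes.

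The table gave log2 values and no read counts, so the depth per library is unknown. Epithelial markers were high everywhere, with Epcam between 14.64 and 14.76 and the intestinal transcription factor Cdx2 between 12.38 and 12.63, whereas of 10 stromal, immune and endothelial genes in the table those under the filter, among them the fibroblast gene Col1a1 and the leukocyte gene Ptprc, did not exceed 2.13. The other 3 passed the filter at low levels, the macrophage gene Cd68 at 5.70 to 6.41, the endothelial gene Pecam1 at 4.21 to 4.51 and Lyz2, a lysozyme of myeloid cells, at 3.77 to 3.94. Differences on this scale were compressed for transcripts close to absence, since the Y-linked gene Ddx3y still read 6.04 to 6.20 in libraries that were female by Xist. All WT libraries came from lane 1, all Atg16l1ΔIEC and Rnaseh2bΔIEC libraries from lane 2, and the double knockout had 2 libraries in each. Libraries 1 and 2 of a genotype, and likewise 3 and 4, had the same sex by Xist. Both Rnaseh2bΔIEC libraries were male, whereas each other genotype had a male and a female pair. Sex was therefore unbalanced in the Rnaseh2b-deficient background. In the 3 genotypes with 4 libraries, the members of such a pair deviated together from the genotype mean (r across genes of 0.31 to 0.849), which cannot be seen where a genotype has a single pair, as in Rnaseh2bΔIEC. Nothing in the labels says which libraries came from separate animals, so the p-values measure the spread between libraries, part of which may be technical.

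The deleted gene itself was checked first. Atg16l1 (ENSMUSG00000026289, GRCm38 chr1:87755870-87792428) read 9.43, 9.54, 9.44 and 9.44 in the WT libraries and 9.52 and 9.53 in the Rnaseh2bΔIEC libraries. It read 6.87, 7.35, 6.75 and 6.73 in the Atg16l1ΔIEC libraries and 8.37, 8.14, 8.57 and 8.47 in the double knockout. Both deleted genotypes lay below every undeleted library, and they did not overlap with each other. The average effect was -1.84 on the log2 scale (SE 0.10, limma adjusted p = 2.62e-07). An exact two-sided permutation test that exchanges Atg16l1 status within each background gave p = 0.00095, the smallest that its 1050 regroupings allow. That test exchanged single libraries and did not keep pairs together, so its p is too small if the libraries of a pair are not independent. The limma adjusted p was 1.9e-05 with the pair as a random block and 0.0458 with pairs averaged. Atg16l1 fell by 2.54 in the WT background and by 1.13 in the Rnaseh2b-deficient background, which left ratios of 0.172 and 0.456, and the difference of 1.40 between backgrounds passed its own test (limma adjusted p = 0.000222). Rnaseh2b also stood higher in the double knockout, at 7.81 ± 0.10 (SD, n = 4), than in Rnaseh2bΔIEC organoids, at 7.18 ± 0.04 (SD, n = 2), a difference of 0.63 (limma adjusted p = 0.00074). In the WT background Rnaseh2b was 8.54 ± 0.13 without and 8.62 ± 0.11 with Atg16l1 deletion (SD, n = 4 each), which did not pass the test. Both targeted transcripts were therefore less reduced in the double knockout than in the single knockouts, and the part of this in the results below was not tested.

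Few genes changed the same way in both backgrounds. The average effect passed the test, with the same direction in both backgrounds, for 625 genes (4.88% of those tested), of which 233 rose (1.82%) and 392 fell (3.06%). Another 228 genes passed for the average with opposite signs and were not counted. Taken separately, Atg16l1 deletion changed 2450 genes in the WT background (19.1%) and 3262 in the Rnaseh2b-deficient background (25.5%). Genes called in both numbered 86 in the same direction (0.672%), 28 higher and 58 lower, against 863 in opposite directions (6.74%). The 86 genes were 3.51% of the calls in the WT background and 2.64% of those in the other, and the 863 were 35.2% and 26.5%. Across all tested genes the differences in the 2 backgrounds, which share no library, had a Pearson r of -0.44, given as a description. Lane ran in opposite directions in the 2 comparisons. Deleted libraries were in lane 2 against lane 1 in the WT background, and partly in lane 1 against lane 2 in the other. Opposite signs from lane and from genotype therefore cannot be fully told apart. The difference between the backgrounds was itself called for 4499 genes (35.1%), among them 240 of the 625, and for 2580 genes with lane as a covariate. The 625 changes were mostly small, with a median size of 0.18, and 44 exceeded 0.5 on the log2 scale.

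The count depended on how the library pairs were treated. With the pair as a random block, where libraries of a pair correlated by 0.645, 38 genes kept the call (0.297%), 9 higher and 29 lower, and 4 were called in both backgrounds. Leaving out the first or the second Rnaseh2bΔIEC library gave 225 and 95 calls in place of 625, and leaving out WT library 1 or 2 gave 364 and 358. Scaling to the upper quartile turned the split into 364 rises and 321 falls while moving the average effect by only 0.01, so the balance of rises and falls depended on the scaling. With sequencing lane as a covariate 1242 genes were called, 506 of them among the 625, and 60 were called in both backgrounds, of which only 20 were among the 86. Lane could be estimated only from the double knockout pairs, which also differ in sex, so that fit cannot tell lane and sex apart. Among the members of the gene lists described below, Slc7a11 and Atg9a alone kept the call with the pair as a block.

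**Figure D1:**
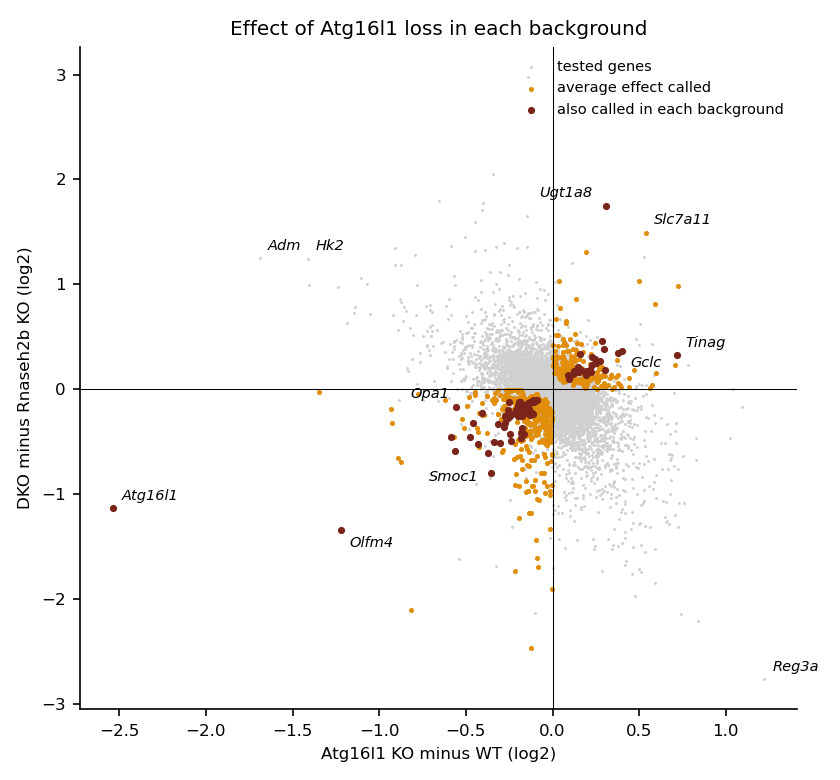
Difference between Atg16l1ΔIEC and WT organoids (x axis, log2) against the difference between Atg16l1/Rnaseh2bΔIEC and Rnaseh2bΔIEC organoids (y axis, log2) for the 12804 tested genes, one point per gene. Orange and dark red points mark the 625 genes called for the average effect, dark red the 86 called in each background as well; the grey cloud stretches from upper left to lower right, where genes such as Hk2 and Reg3a moved in opposite directions.

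Among the genes that were called higher for the average and also in each background alone, with no overlap between libraries, those with the largest average effects included Ugt1a8, Tinag, Gclc, Pkp1, Apip, S100a16, Alg8, Barx2, Bscl2, Lars and Ilkap. Libraries without overlap in the same direction in both backgrounds were found for 1.84% of tested genes. Tinag, which encodes a basement membrane glycoprotein (GRCm38 chr9:76951693-77045794), read 9.22, 9.20, 9.27 and 9.26 in WT and 9.97, 9.94, 9.93 and 9.97 in Atg16l1ΔIEC organoids. It read 9.0 and 8.99 in Rnaseh2bΔIEC and 9.41, 9.29, 9.30 and 9.28 in the double knockout. The libraries of each genotype kept within a narrow band, and the rise was larger in the WT background (0.72) than in the Rnaseh2b-deficient one (0.32). Its average effect of 0.52 (SE 0.03, limma adjusted p = 3.24e-07) was among the few that also passed with the pair as a block (adjusted p = 0.000112).

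Pkp1, which encodes the desmosomal plaque protein plakophilin 1, read 10.84 to 11.06 in WT and 11.13 to 11.31 in Atg16l1ΔIEC organoids. In the other background it read 10.77 and 10.69 against 11.15 to 11.24. The average rise of 0.37 (SE 0.04, limma adjusted p = 0.000356) did not differ detectably between backgrounds and kept its call with the pair as a block (adjusted p = 0.0103). Alg8, a glucosyltransferase that builds the precursor of N-glycans in the endoplasmic reticulum, rose by 0.27, with 0.25 and 0.29 in the 2 backgrounds. Apip, an enzyme of the methionine salvage pathway, rose by 0.36, and Bscl2, which encodes the lipid droplet protein seipin, by 0.27. S100a16, a calcium-binding protein, rose by 0.34 and the homeobox gene Barx2 by 0.27. Lars, the cytosolic leucyl-tRNA synthetase, and Ilkap, a protein phosphatase, rose by 0.24 each. Of these, Ugt1a8, Tinag, Pkp1, Alg8, Lars and Ilkap kept the call with the pair as a block, and Gclc, Apip, S100a16, Barx2 and Bscl2 did not.

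The 12 largest falls by the same rule were Atg16l1 itself, Smoc1, Pnliprp2, Camk2n1, Sgk3, Cntd1, Slc5a8, Soga1, Ccdc92b, Opa1, Spp2 and Vps11. Smoc1, a secreted matricellular protein that restrains BMP signalling (GRCm38 chr12:81026808-81186414), read 6.10, 6.12, 5.84 and 5.82 in WT and 5.73, 5.51, 5.69 and 5.53 in Atg16l1ΔIEC organoids. It read 6.21 and 6.31 in Rnaseh2bΔIEC and 5.38, 5.49, 5.49 and 5.49 in the double knockout. Every deleted library lay below every undeleted one, and the average fall was 0.58 on the log2 scale (SE 0.06, limma adjusted p = 0.000241; adjusted p = 0.0124 with the pair as a block). Opa1, the GTPase that fuses the mitochondrial inner membrane, fell by 0.56 in the WT background, from 11.78 ± 0.04 to 11.22 ± 0.04 (SD, n = 4 each), and by 0.17 in the other. That difference between backgrounds passed its test (limma adjusted p = 0.000102), and the average fall of 0.36 was called with the pair as a block (adjusted p = 0.00173).

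Vps11, a core subunit of the tethering complexes that fuse vesicles with endosomes and lysosomes, also fell more in the WT background (0.40) than in the other (0.22). Pnliprp2, a secreted lipase of the pancreatic lipase family, fell by equal amounts, 0.56 and 0.59. It read 10.07 to 10.59 in WT against 9.51 to 9.92 in Atg16l1ΔIEC libraries, and 10.58 and 10.80 in Rnaseh2bΔIEC against 9.92 to 10.25 in the double knockout. The groups were separate in each background, but WT and the double knockout overlapped. Camk2n1, an inhibitor of the calcium/calmodulin-dependent kinase II, fell by 0.52, Sgk3, a kinase of endosomal membranes, by 0.49, and Slc5a8, a transporter of short monocarboxylates, by 0.47. Cntd1, a cyclin-domain protein known from meiosis, fell by 0.48, Soga1 by 0.42, Ccdc92b by 0.41 and the secreted phosphoprotein gene Spp2 by 0.33. Smoc1, Sgk3, Cntd1, Ccdc92b, Opa1 and Vps11 kept the call with the pair as a block, as did Atg16l1, and the other 5 did not.

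**Figure D2:**
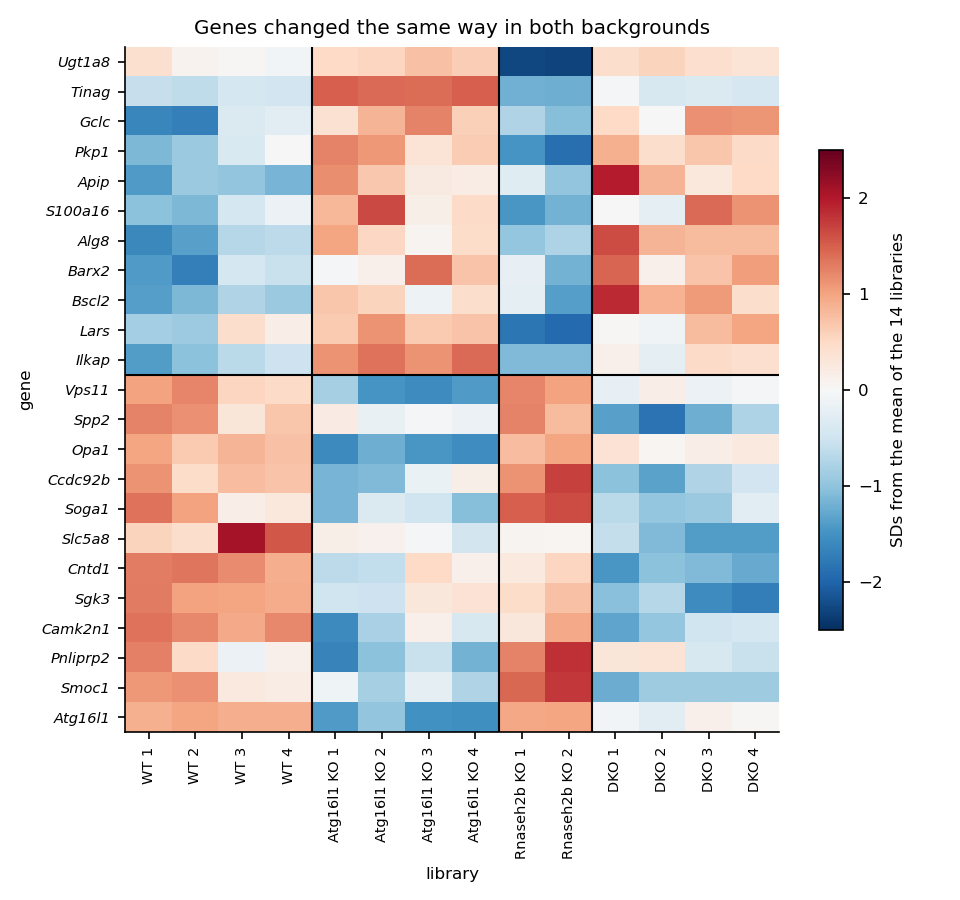
Expression of the largest rises named in the text (top) and the 12 largest falls (bottom), among genes called in each background without overlap, in the 14 libraries (columns, by genotype), each gene shown in SDs from its mean over the libraries, red above and blue below. Vertical lines separate the genotypes. Atg16l1ΔIEC libraries differ from WT in the same direction as double knockout from Rnaseh2bΔIEC libraries. Ugt1a8 is set apart mostly by the 2 Rnaseh2bΔIEC libraries.

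Olfm4, the secreted glycoprotein that marks crypt base stem cells, showed the largest fall among the listed genes but did not meet the rule of no overlap. It read 10.74, 10.86, 11.51 and 11.79 in WT and 9.64, 10.82, 9.88 and 9.68 in Atg16l1ΔIEC organoids, where a single library reached the WT range. It read 11.30 and 10.83 in Rnaseh2bΔIEC against 10.02, 9.38, 9.71 and 9.77 in the double knockout, without overlap. The falls of 1.22 and 1.34 were nearly equal, and the average ratio was 0.411 (log2 -1.28, SE 0.22, limma adjusted p = 0.00555). With the pair as a block the adjusted p was 0.191. Of 18 stem cell markers tested, Olfm4 fell for the average effect and Prom1, a membrane glycoprotein, rose (0.15), and the median average effect was -0.05, against 0.00 over all tested genes. In the WT background 10 of the markers fell and 0 rose, with a median of -0.36, and in the Rnaseh2b-deficient background 1 fell and 4 rose, with a median of 0.25. Of all 12804 tested genes 1333 fell and 1117 rose in the WT background, and 1845 fell and 1417 rose in the other. For the average effect 3.06% of them fell and 1.82% rose. Lgr5, the R-spondin receptor of these cells, fell by 0.85 in the WT background and rose by 0.75 in the other, and Ascl2, their transcription factor, fell by 0.52 and rose by 0.52. Since whole cultures were sequenced, fewer cells of a type and less RNA per cell cannot be told apart.

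Of 24 tested NRF2 targets, 4 rose for the average effect, Slc7a11, Gclc, Pgd and G6pdx, and 0 fell, where 1.82% of all tested genes rose and 3.06% fell. Slc7a11 encodes the cystine importer that supplies cysteine for glutathione (GRCm38 chr3:49892526-50443614). It read 9.52, 9.47, 9.87 and 9.82 in WT, 10.11, 10.31, 10.20 and 10.21 in Atg16l1ΔIEC, 8.92 and 8.80 in Rnaseh2bΔIEC and 9.88, 9.99, 10.77 and 10.76 in double knockout organoids. The deleted libraries were higher in each background, with the highest values in double knockout libraries 3 and 4, which came from lane 1. The average ratio was 2.02 (log2 1.02, SE 0.14, limma adjusted p = 0.00175; adjusted p = 0.00863 with the pair as a block). The rise in the WT background alone was 0.54 (adjusted p = 0.0522), and in the other it was 1.49 (adjusted p = 0.000779).

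Gclc encodes the catalytic subunit of the enzyme that starts glutathione synthesis (GRCm38 chr9:77754535-77794485). Its values were 10.73, 10.71, 11.02 and 11.04 in WT, 11.19, 11.30, 11.39 and 11.24 in Atg16l1ΔIEC, 10.93 and 10.86 in Rnaseh2bΔIEC, and 11.22, 11.10, 11.37 and 11.36 in the double knockout. No deleted library reached down to an undeleted one. The rise was 0.40 in the WT background and 0.37 in the other (average SE 0.07, limma adjusted p = 0.00565; adjusted p = 0.0631 with the pair as a block). G6pdx and Pgd, the NADPH-producing enzymes of the pentose phosphate pathway, rose by 0.16 and 0.22. Other members went opposite ways. Gclm, the partner subunit of Gclc, was higher by 0.29 in the WT background and lower by 0.27 in the other, and both passed the test. Nqo1, a quinone reductase, rose by 0.50 in the WT background and differed by -0.17 in the other (adjusted p = 0.103), and Hmox1, the heme oxygenase, fell by 0.58 and rose by 0.70. Hmox1 differed by only 0.03 in the WT background once lane was in the fit. Over the list, 14 members rose and 1 fell in the WT background, against 5 and 7 in the Rnaseh2b-deficient one, and the median effects were 0.32 and -0.12. Of all tested genes 19.1% and 25.5% were called in these backgrounds, in either direction. The called number was 4 without the first and 2 without the second Rnaseh2bΔIEC library, and 1 with the pair as a block, and 7 rose and 2 fell in the fit with lane.

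The promoter of G6pdx is shown because it alone among the promoters found for the 4 risen NRF2 targets held the core letters of the antioxidant response element, TGACNNNGC, searched on both strands of the 250 bases before the start in RefSeq (GRCm38.p6). The entry covers chrX:74428881-74429130 on the minus strand, and the capitals mark the match. Gclc had no entry.

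G6pdx: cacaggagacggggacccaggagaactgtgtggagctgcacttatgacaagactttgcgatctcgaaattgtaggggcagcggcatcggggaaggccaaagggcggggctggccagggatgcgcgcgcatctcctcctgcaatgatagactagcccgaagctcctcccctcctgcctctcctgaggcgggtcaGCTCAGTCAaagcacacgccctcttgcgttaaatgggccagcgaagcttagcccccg

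The same letters were present in 1406 of the 10043 tested genes with a promoter entry, in 16.3% of the called rises (30 of 184) and in 14.1% of the called falls (43 of 304). A match is a description of letters in this window and not of a bound site.

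Of 22 tested genes of the interferon response, 3 rose, among them Cxcl10 and Oas1a, and 0 fell (1.82% and 3.06% of all tested genes), and the median average effect was 0.17 against 0.00 over all tested genes. Cxcl10, a chemokine induced by interferon, read 4.54 to 4.62 in WT and 4.58 and 4.61 in Rnaseh2bΔIEC libraries. It read 4.93 to 5.41 in Atg16l1ΔIEC and 4.74, 5.10, 5.77 and 6.03 in the double knockout, so that the deleted libraries were both higher and more scattered. The undeleted libraries read low, where this scale compresses differences, so the spreads cannot be compared. Its average effect was 0.70 (SE 0.17, limma adjusted p = 0.0265). Oas1a, which encodes a synthetase of the RNase L pathway and has near-identical neighbouring copies that may share reads, rose by 0.46, of which 0.70 in the WT and 0.23 in the Rnaseh2b-deficient background (adjusted p = 0.239). Neither Cxcl10 nor Oas1a kept the call with the pair as a block (adjusted p = 0.223 and 0.166), and without the second Rnaseh2bΔIEC library 0 members were called. In the fit with lane 5 rose and 1 fell, and Oas1a, with a difference of 1.16 in the WT background and no rise in the other, was not called. Without double knockout libraries 1 and 2 the number was 12, and without libraries 3 and 4 it was 3. The mean level of the list was 6.59 and 6.70 in double knockout libraries 1 and 2 and 7.08 and 7.20 in libraries 3 and 4, which came from the other lane and the other sex. Isg15, also low at 4.69 to 4.82 in WT libraries, was higher by 0.50 (adjusted p = 0.0523) and Ifit1 by 0.20 (adjusted p = 0.624).

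The promoters of Oas1a and Cxcl10 are shown because both held the core of the interferon-stimulated response element, GAAA and GAAA with any 2 bases between, searched as above. The Oas1a entry covers chr5:120907526-120907775 and the Cxcl10 entry chr5:92348890-92349139, both on the minus strand. Capitals mark these letters, which overlap in a double match in Oas1a; in Cxcl10 the second run of capitals is a match to TGACNNNGC on the opposite strand.

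Oas1a: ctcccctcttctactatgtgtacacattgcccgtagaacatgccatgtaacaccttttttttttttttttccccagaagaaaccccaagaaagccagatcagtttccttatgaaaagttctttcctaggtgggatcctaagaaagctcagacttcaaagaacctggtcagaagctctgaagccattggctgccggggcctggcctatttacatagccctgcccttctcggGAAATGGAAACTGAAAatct
Cxcl10: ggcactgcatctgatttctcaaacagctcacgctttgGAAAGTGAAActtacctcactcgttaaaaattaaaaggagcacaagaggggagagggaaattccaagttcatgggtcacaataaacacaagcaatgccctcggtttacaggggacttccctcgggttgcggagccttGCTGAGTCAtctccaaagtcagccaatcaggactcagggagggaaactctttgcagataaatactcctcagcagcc

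These letters were found in 3.07% of all promoters searched, in 5.43% of the called rises (10 of 184) and in 3.29% of the called falls (10 of 304).

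**Figure D3:**
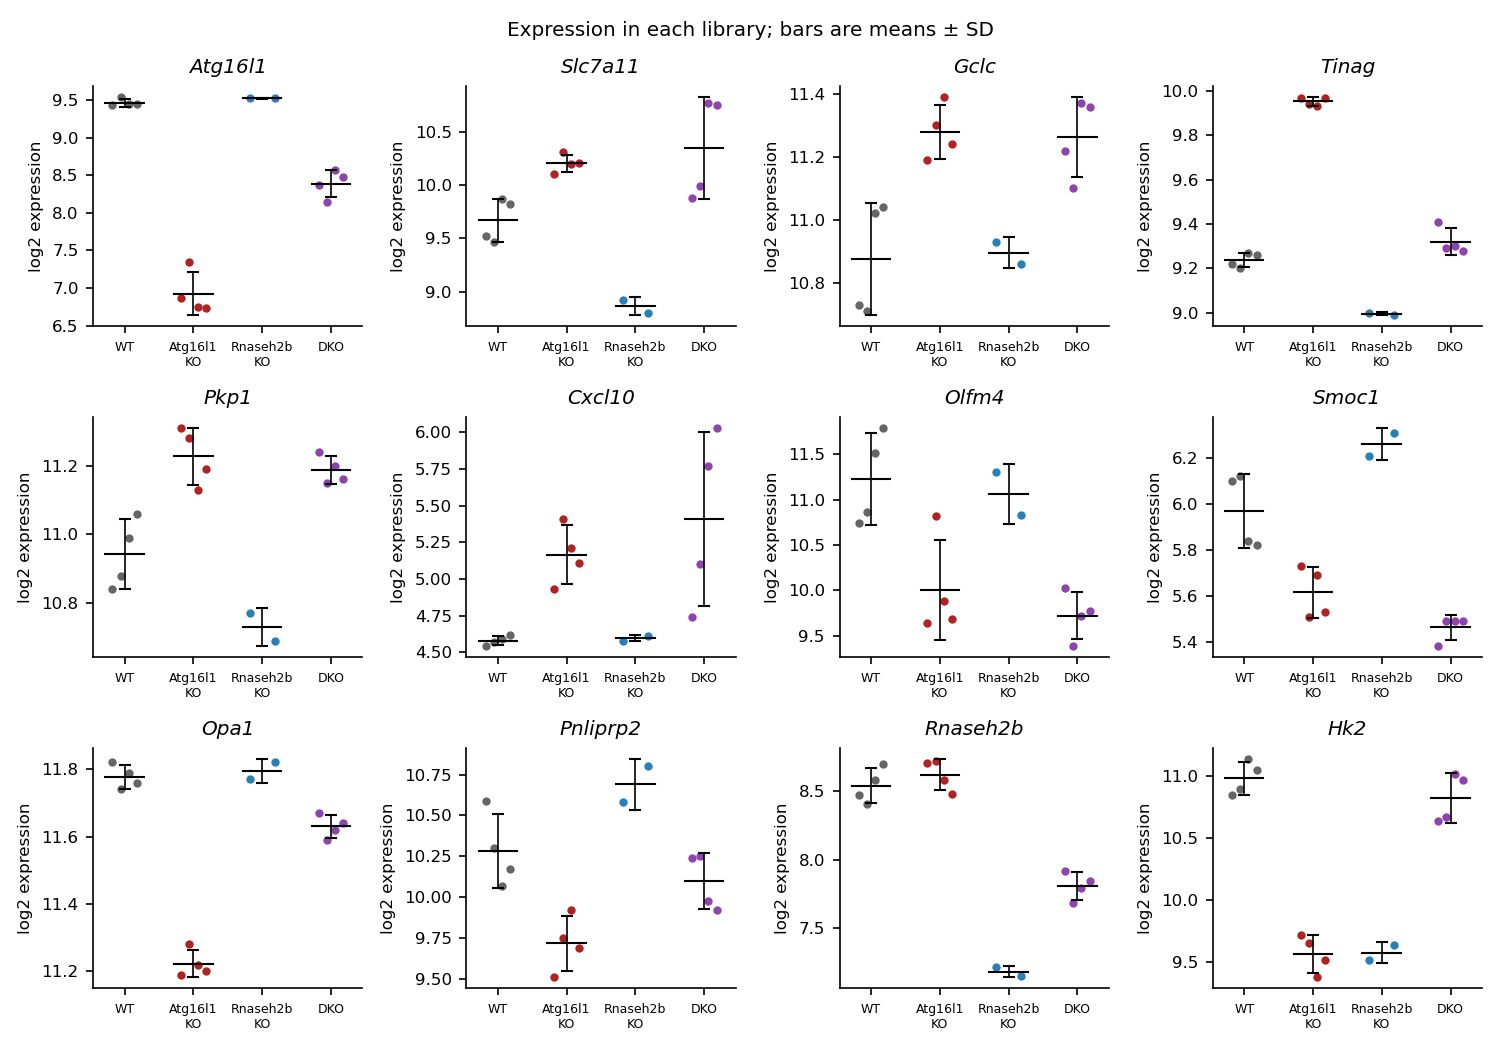
Log2 expression (y axis) of 12 genes in every library, grouped by genotype on the x axis; points are libraries, horizontal lines are means and bars are SDs (n = 4, 4, 2 and 4). Slc7a11, Gclc, Tinag, Pkp1 and Cxcl10 are higher and Olfm4, Smoc1, Opa1 and Pnliprp2 lower in the deleted genotype of each background, and Hk2 shows a gene that moves in opposite directions.

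Of 30 other tested genes of the autophagy machinery, Atg9a and Map1lc3a fell and 0 rose, where 3.06% of all tested genes fell and 1.82% rose, and the median average effect was -0.01. Atg9a, the lipid scramblase of the autophagosome precursor, read 9.90 to 9.97 in WT and 9.41 to 9.52 in Atg16l1ΔIEC organoids. It read 9.87 and 9.85 in Rnaseh2bΔIEC and 9.76 to 9.84 in the double knockout, so the fall of 0.48 in the WT background was set against 0.08 in the other (adjusted p = 0.174). The average fall of 0.28 (SE 0.03, limma adjusted p = 0.000117) was called with the pair as a block (adjusted p = 0.0166). Map1lc3a, one of the LC3 genes, fell by 0.19 and lost the call with the pair as a block (adjusted p = 0.451). Atg5 and Atg12, which encode the conjugate that ATG16L1 carries, differed by -0.02 and -0.05, and Atg7, the activating enzyme, by 0.02, none past the test. Of 17 autophagy receptors 0 were called by limma, and 1 had an unadjusted p under 0.05 with the same direction. Sqstm1, which encodes p62, differed by 0.10 (adjusted p = 0.369), with values from 12.20 to 12.48 in WT and 12.45 to 12.57 in Atg16l1ΔIEC libraries.

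Of 24 tested lysosomal genes, 3 fell, among them Hexa and Psap, and 0 rose, where 3.06% of all tested genes fell and 1.82% rose, and the median was -0.08. Hexa, a subunit of a ganglioside-degrading hexosaminidase, fell by 0.27 in the WT and by 0.32 in the Rnaseh2b-deficient background, from 12.02 ± 0.12 to 11.75 ± 0.09 (SD, n = 4 each) and from 11.98 ± 0.03 (SD, n = 2) to 11.65 ± 0.12 (SD, n = 4). Psap, the precursor of the saposins that help lysosomal enzymes degrade sphingolipids, fell by 0.10. Lamp1 and Ctsd, membrane and protease components of the same organelle, differed by -0.12 and -0.05 and did not pass. Neither Hexa nor Psap kept the call with the pair as a block (adjusted p = 0.0753 and 0.282). Once lane was in the fit 5 members fell, and Hexa differed by -0.08 in the WT background.

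Of 20 tested genes of fatty acid oxidation, Ppargc1a, Slc25a20, Ppara, Acaa2 and Hadha fell for the average effect and 0 rose, where 3.06% of all tested genes fell and 1.82% rose. With the pair as a block 0 of them were called. The median was -0.17, made up of 0.02 in the WT and -0.40 in the Rnaseh2b-deficient background, where 17 members fell. Of all tested genes 25.5% were called in that background, in either direction. Slc25a20, the mitochondrial carnitine-acylcarnitine carrier, read 10.16 to 10.53 in WT and 10.14 to 10.32 in Atg16l1ΔIEC libraries, which overlapped. It read 10.56 and 10.69 in Rnaseh2bΔIEC and 10.12 to 10.20 in the double knockout, a fall of 0.48. Ppargc1a, the coactivator of mitochondrial biogenesis, went the other way round, with a fall of 0.78 in the WT background and a difference of -0.05 in the other. Ppara, the nuclear receptor that drives this programme, fell by 0.27, and the oxidation enzymes Acaa2 and Hadha by 0.23 and 0.17. Cpt1a, the enzyme that admits fatty acids to the mitochondrion, differed by -0.20 (adjusted p = 0.0755). The count was 2 without the first and 0 without the second Rnaseh2bΔIEC library, and 9 in the fit with lane.

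Enterocyte markers moved with that list in the same background. Of 23 tested, 20 fell and 0 rose in the Rnaseh2b-deficient background, where the mean level of the list was 12.96 and 13.06 in Rnaseh2bΔIEC and 11.87 to 12.34 in double knockout libraries. In the WT background 2 rose and 0 fell, at 11.93 to 12.39 in WT and 12.19 to 12.71 in Atg16l1ΔIEC libraries. Of all tested genes 25.5% were called in the Rnaseh2b-deficient and 19.1% in the WT background, and 1.82% rose and 3.06% fell for the average. For the average effect, Anpep alone fell (0.43), a brush border aminopeptidase with differences of -0.28 and -0.58. Anpep lost the call with the pair as a block (adjusted p = 0.153). The fit with lane called 12 of the 23 markers lower, and the median average effect was -0.44 in place of -0.32. Fabp1, the fatty acid binding protein of enterocytes, differed by 0.42 and -1.64. The part of enterocyte content in the falls of fatty acid oxidation genes was not tested. Of 25 genes of cholesterol and fatty acid synthesis, Mvd, an enzyme of the mevalonate pathway, and Fasn, the fatty acid synthase, rose by 0.17 and 0.20 and 0 fell, with 10 members higher and 0 lower in the WT and 1 higher and 3 lower in the Rnaseh2b-deficient background. Neither gene kept the call with the pair as a block (adjusted p = 0.32 and 0.164), and Fasn lost it in the fit with lane.

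Few secretory cell markers were called for the average effect, where 1.82% of all tested genes rose and 3.06% fell. Of 15 Paneth cell genes and 14 goblet cell genes 0 were called by limma, with 2 and 0 at an unadjusted p under 0.05 in the same direction. Lyz1, the Paneth cell lysozyme, differed by -0.02 in the WT background, where the libraries overlapped. It read 12.41 and 12.23 in Rnaseh2bΔIEC against 12.89 to 13.13 in the double knockout, which did not overlap. Its average difference was 0.32 (adjusted p = 0.213). The Paneth cell protease Mmp7 differed by 0.35 (adjusted p = 0.17). Clca1, secreted by goblet cells, fell by 0.91 in the WT background and rose by 1.18 in the other, and Tff3, a goblet cell trefoil factor, fell by 0.61 and rose by 0.79. Of 20 enteroendocrine genes, the peptide hormone gene Nts fell by 0.49 and no other was called, while 7 fell in the WT and 10 rose in the Rnaseh2b-deficient background. Over all tested genes 19.1% and 25.5% were called in these backgrounds, in either direction. Of 13 tuft cell genes, Ptgs1, a prostaglandin synthase, rose by 0.13. Among 15 regenerative and fetal-like genes 0 were called by limma (3 rose in the fit with lane), and 0 had an unadjusted p under 0.05 in the same direction, with medians of -0.39 in the WT and 0.66 in the Rnaseh2b-deficient background. Clu, a marker of revival stem cells, differed by -0.15 and 1.65. Of 20 proliferation genes 0 were called, and 4 had an unadjusted p under 0.05 in the same direction.

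Among genes of inflammation and cell death, single members changed. Of 21 tested inflammatory and NF-kB genes, Tnfaip2 fell by 0.65, and Tnf and the iron-binding lipocalin Lcn2 rose by 0.15 and 0.06 at the low levels of 4.41 and 3.43, where 3.06% of all tested genes fell and 1.82% rose. With the pair as a block 0 of the list were called, and the adjusted p of Tnfaip2 was 0.0934. Its difference was -0.13 in the WT background (adjusted p = 0.546) and -1.18 in the other. Tnfaip3, the A20 brake on NF-kB, fell by 0.57 in the WT background and rose by 0.45 in the other. Of 18 cell death genes, Mlkl and Ripk3, the pore-forming effector and the kinase of necroptosis, rose by 0.24 and 0.13. Mlkl read 6.22 to 6.41 in WT and 6.45 to 6.79 in Atg16l1ΔIEC libraries, without overlap. It read 6.65 and 6.51 in Rnaseh2bΔIEC and 6.70 to 6.83 in the double knockout, also without overlap, and the adjusted p was 0.0252 for the average and 0.342 with the pair as a block. Ripk3 differed by 0.01 in the WT and by 0.25 in the other background. Ripk1 and Casp8, the kinase and protease upstream of them, differed by -0.09 and -0.08 and did not pass.

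As over all tested genes, most calls in the stress pathways were made in 1 background or had opposite directions. Of all tested genes 19.1% were called in the WT and 25.5% in the Rnaseh2b-deficient background. For the average effect 1.82% rose and 3.06% fell. Of 22 genes of the unfolded protein response, Hyou1, a chaperone of the endoplasmic reticulum, rose by 0.13, and no other member was called, while 5 rose in the fit with lane. Of 20 targets of ATF4, the transcription factor of amino acid stress, 0 were called and 4 had an unadjusted p under 0.05 in the same direction, while 12 rose in the Rnaseh2b-deficient and 4 fell in the WT background. In the fit with lane 14 of these 20 rose, with a median average effect of 0.19 in place of 0.10, and 5 rose without double knockout libraries 1 and 2. Of 23 genes of hypoxia and glycolysis 0 were called, and 0 had an unadjusted p under 0.05 in the same direction, while 14 fell in the WT and 14 rose in the Rnaseh2b-deficient background. Of 29 p53 targets 0 were called, and 2 had an unadjusted p under 0.05 in the same direction. Cdkn1a, the cell cycle inhibitor p21, differed by -0.22 (adjusted p = 0.0636), and the p53 ligase gene Mdm2 by 0.03. Of 8 epithelial identity genes, Cdx2 fell by 0.14. The list of 15 stromal, immune and endothelial genes had 3 above the filter and is void, with Lyz2 called upwards by 0.09 at a level of 3.86. Of 5 sex-linked genes 0 were called, and 0 had an unadjusted p under 0.05 in the same direction. Their median difference was -0.10 in the WT and -1.42 in the Rnaseh2b-deficient background, where both Rnaseh2bΔIEC libraries were male. The other genotypes held both sexes, which widens the spread of these genes, so the lack of calls does not show balanced sex.

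**Figure D4:**
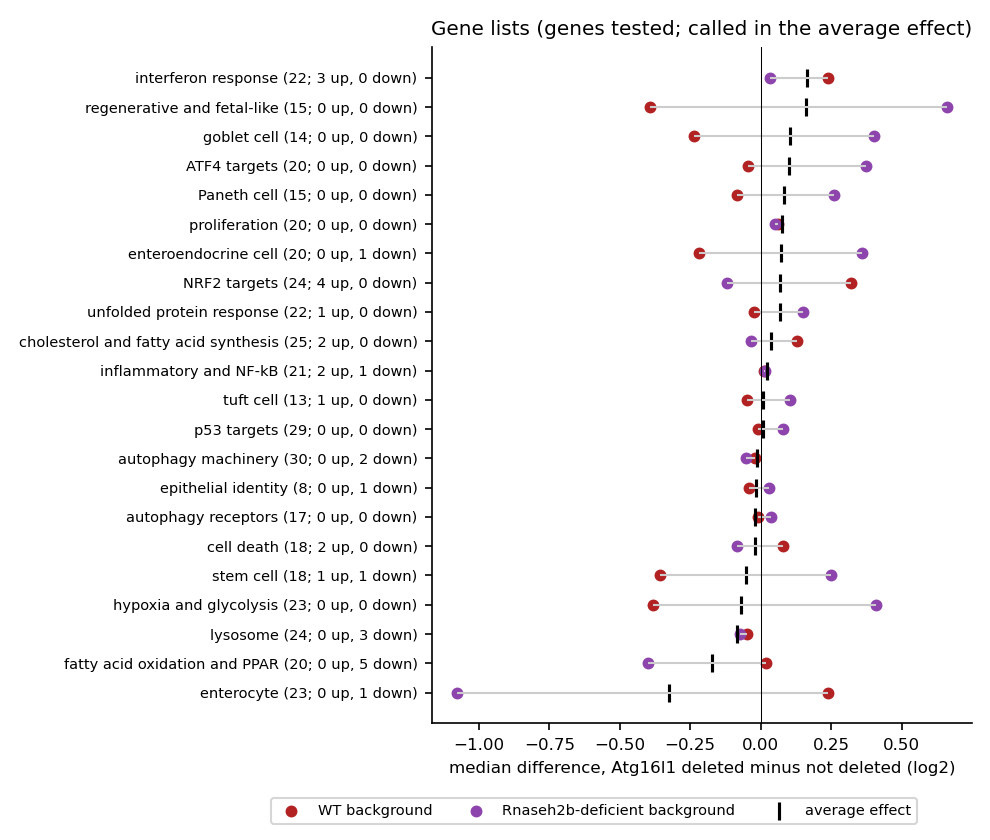
Median log2 difference of each gene list in the WT background (red), in the Rnaseh2b-deficient background (purple) and for the average effect (black bar); brackets give the genes tested and the number called up and down. The lysosome, proliferation and inflammatory lists have both medians close together, and the enterocyte, regenerative, hypoxia, stem cell and goblet cell lists have them on opposite sides of 0.

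Genes that differed most between the backgrounds show what the average left out. The 5 with the largest called differences of opposite sign were Reg3a, G6pc, Adm, Bco1 and Hk2. Hk2, a hexokinase of glycolysis, read 10.85, 10.90, 11.14 and 11.05 in WT and 9.72, 9.66, 9.38 and 9.52 in Atg16l1ΔIEC libraries. It read 9.52 and 9.64 in Rnaseh2bΔIEC and 10.64, 10.67, 11.02 and 10.97 in the double knockout. Either single deletion lay more than 1 unit below WT while the double knockout lay with WT, and the average effect was -0.08 (adjusted p = 0.534). Adm, a peptide hormone induced by hypoxia, fell by 1.69 and rose by 1.25. Reg3a, an antimicrobial lectin, rose by 1.22 and fell by 2.77, and G6pc, the glucose-6-phosphatase of gluconeogenesis, rose by 0.84 and fell by 2.21. Bco1, which cleaves beta-carotene, fell by 2.14 in the Rnaseh2b-deficient background and differed by 0.74 in the other (adjusted p = 0.0619). When lane was a covariate, the WT-background differences of Reg3a, G6pc and Bco1 were 0.51, 0.05 and -0.09, so that Bco1 no longer had opposite signs and G6pc was close to 0. Those of Adm and Hk2 were -1.06 and -1.07 in that fit.

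Genes near Atg16l1 were described separately because of the floxed Atg16l1 allele. By the labels, it differs between the compared organoids in the Rnaseh2b-deficient background and not in the WT background. Of 62 tested genes that start within 5 Mb of Atg16l1, 8 were called (12.9%, against 4.88% of all), Atg16l1 among them, 6 higher and 2 lower. With the pair as a block 3 kept the call, Atg16l1, Ugt1a8 and Ilkap. Ugt1a8, one of the glucuronosyltransferase genes that share their last exons in a single cluster, starts 331.9 kb away at chr1:88087813-88219004. It read 7.18 to 7.48 in WT, 7.54 to 7.70 in Atg16l1ΔIEC and 7.45 to 7.58 in double knockout libraries, but 5.77 and 5.74 in Rnaseh2bΔIEC. The average effect of 1.03 (SE 0.05, limma adjusted p = 2.12e-07) was therefore made mostly by the 1.75 of one background, and the difference between backgrounds was called. Reads in the shared exons make the split between members of this cluster uncertain. Ugt1a10 and Ugt1a6b of the same cluster rose by 0.14 and 0.25. Spp2, 651.1 kb away, fell by 0.33, with 0.18 in the WT and 0.47 in the other background. Ilkap, 3618.0 kb away, rose by 0.30 and 0.18, and its neighbours Erfe and Asb1 by 0.16 and 0.15 on average. Deletion of Atg16l1 and the flanking chromosome of the floxed allele cannot be told apart in the Rnaseh2b-deficient background.

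**Figure D5:**
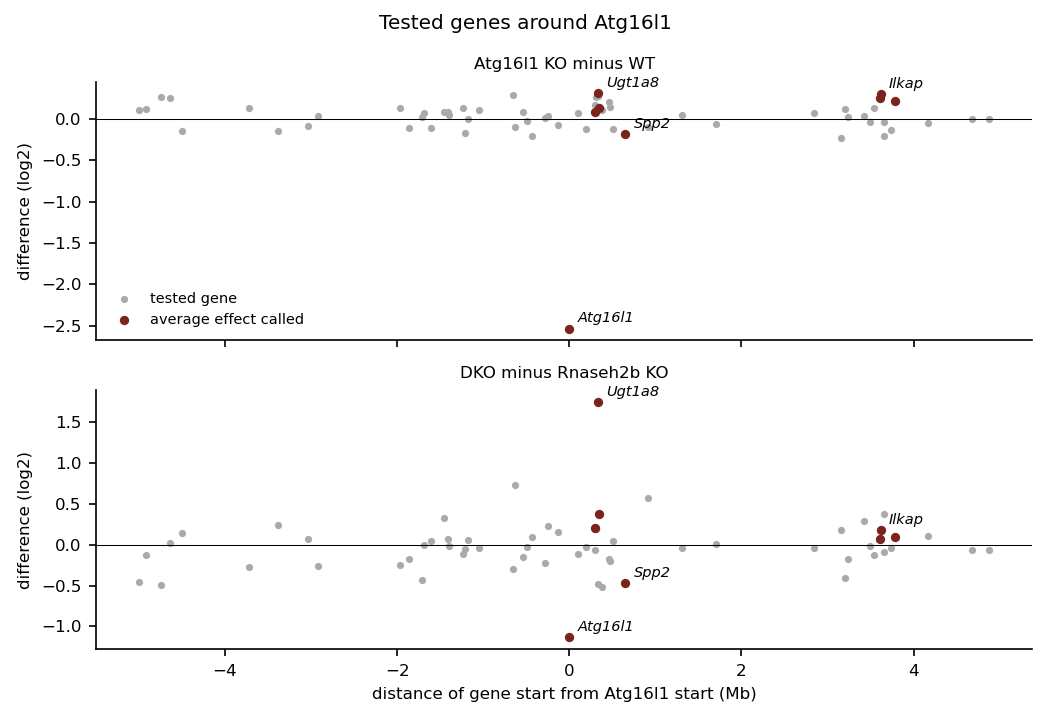
Log2 difference in each background (upper panel Atg16l1ΔIEC minus WT, lower panel Atg16l1/Rnaseh2bΔIEC minus Rnaseh2bΔIEC) of the 62 tested genes within 5 Mb of the Atg16l1 start, by distance in Mb; dark red marks the 8 genes called for the average effect. Ugt1a8 stands at 1.75 in the lower panel and at 0.31 in the upper one.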

How the data were processed

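Stranded mRNA libraries of small intestinal organoids were sequenced by the authors as single reads. By the authors' methods, cutadapt removed adapters, TopHat2 placed the reads on GRCm38, HTSeq produced the gene counts, and DESeq2 was their differential expression tool. The deposited table holds log2 values, whose transformation is not given in the sources used here. All 14 columns matched a sample by library name, and 99.7% of the identifiers had a GENCODE M21 symbol.

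Genes with a mean log2 value of at least 3.32 were fitted with limma 3.58.1 (R 4.3.3). The fit had 1 mean per genotype and a mean trend, with Benjamini-Hochberg adjustment at 0.05. On simulated data with 50 genes per size, the average effect recovered 40 at a log2 change of 0.25 and 48 at 0.5. The simulated libraries were independent and the change was equal in both backgrounds. Library pairs here correlated by 0.645, so these numbers check the fit and do not give the recovery in the data. The members and gene lists were chosen with earlier results of these data known. Named genes were the targets, the 12 largest rises and 12 largest falls called in the average and in each background without overlap, list members (defining genes, and up to 5 called), the 5 largest opposite differences, and called genes within 5 Mb of Atg16l1. Replicate numbers were not taken to pair samples across genotypes. Gene lists were described, not tested. Some results that met these rules are not reported here.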

Additional observations from a re-analysis of the deposited data

Results flagged for a closer look

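In a check of 177 groups of 4 libraries for 1 lone sample, Dixon's 95% critical value for the gap as a share of the range was used. It was passed by 9 groups (5.08%). Chance gives 1 in 20 for independent libraries, but the libraries of a pair deviated together, so the rate by chance is not known here. The highest WT value of Atg16l1 had a share of 0.89, the lowest double knockout value of Smoc1 0.972, the highest WT value of Psap 0.951, and the lowest Atg16l1ΔIEC value of Ripk3 0.904. The highest Atg16l1ΔIEC values of Prom1 and Lars had shares of 0.933 and 0.848, and the highest double knockout values of Mvd, Alg8 and Tinag had 0.883, 0.91 and 0.894.

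Among the 12 largest rises and 12 largest falls called for the average and in each background without overlap between libraries, the effect of Atg16l1 deletion differed between the Rnaseh2b-deficient and the WT background, by limma's test of the difference, in 7. That difference was called for 35.1% of all tested genes, so 7 is not more than the usual share. These genes were also chosen for the same direction in both backgrounds, which limits the count. The effect in the Rnaseh2b-deficient background minus that in the WT background was 1.402 for Atg16l1, 1.439 for Ugt1a8, 0.387 for Opa1 and 0.18 for Vps11. It was -0.445 for Smoc1, -0.395 for Tinag and -0.29 for Spp2.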

How the results depend on the processing

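The average effect of Atg16l1 ranged from -1.91 to -1.79 when single libraries were left out. Of 58 other called genes, 0 reversed in the average effect under any alternative. Under all but the averaging of pairs, 14 kept the average effect past the threshold. This tally did not ask for the same direction in both backgrounds. It counts Oas1a and Fasn as kept in the fit with lane, where they were not called. In place of 625 average calls there were 161 in an additive fit, 1242 with lane as a covariate (1586 in the WT background, 2580 for the difference and 60 in both, 20 of them among the 86), 44 beyond a log2 difference of 0.5, and 38 with the pair as a random block (384, 692, 1553 and, in both backgrounds, 4). Averaging pairs, which leaves 3 residual degrees of freedom, gave 1, 1, 0, 0 and 0. In the last, 35 genes had an unadjusted p under 0.05. Fitting only the genotypes of a background gave 56 shared calls. Alternatives chosen after seeing the data gave 964 and 136 without double knockout libraries 1 and 2, and 975 and 159 without libraries 3 and 4. Leaving out single libraries gave 95 to 801 average calls, 1659 to 2869 in the WT background, 757 to 3288 in the Rnaseh2b-deficient background, 2704 to 4714 for the difference and 17 to 88 in both. The cause of these shifts was not tested.

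The deviations of same-numbered libraries of different genotypes correlated by -0.413 to 0.459. The first libraries of Rnaseh2bΔIEC, Atg16l1ΔIEC and double knockout organoids deviated together (0.447 to 0.459) and the other same-numbered libraries ranged from -0.413 to 0.165, so the numbers were not taken to pair the samples. With the replicate block, 482 genes were called for the average effect and 84 in both backgrounds. Depth is unknown, and the Rnaseh2bΔIEC group rests on 1 pair of libraries.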

Other observations

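Calls were not spread evenly over the chromosomes, a pattern chosen after its values were seen and given here without a test. On chromosome 1, 51 of 743 tested genes were called (6.86%) and on chromosome 4, 60 of 828 (7.25%), and 9 of the 38 genes called with the pair as a block lay on chromosome 1. Beside Atg16l1, Ugt1a8, Ilkap, Pkp1, Sgk3 and Atg9a these were Pcp4l1, Tomm40l and Apoa2, which lie side by side between 171173262 and 171226379 on GRCm38 chromosome 1. Apoa2, an apolipoprotein of high-density lipoprotein, read 5.24 to 5.62 in WT, 5.34 to 5.58 in Atg16l1ΔIEC and 5.38 to 5.82 in double knockout libraries, but 7.50 and 7.54 in Rnaseh2bΔIEC. Pcp4l1 read 4.36 to 4.70 in those 3 genotypes and 5.51 and 5.62 in Rnaseh2bΔIEC. Like Ugt1a8, both were set apart by the Rnaseh2bΔIEC libraries.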
